A study of Homo sapiens with 6 samples.

Results

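The 3 libraries described here were made from PC3 cells 72 h after transfection with a non-specific siRNA. They are 3 of the 6 samples of the series and were chosen by that label alone, so no measured value entered the choice. PC3 is an established human prostate cancer line, derived from a bone metastasis. The cells were grown in RPMI medium with serum and antibiotics, and mRNA libraries were made from their RNA. Besides being PC3 cells, the 3 samples share the transfection itself: untransfected cells were not analysed here, and the sources used here do not give the sequence or number of the non-specific siRNAs. The other 3 samples received an siRNA against paxillin and enter no comparison. Nothing says that the 3 replicates came from separate cultures, so every SD below is a spread that may be technical, and PC3 is 1 line, so the levels describe this line and not prostate tumours at large.

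Luminal cells of the prostate are known for their response to androgens and for the secreted proteases that androgens induce, such as prostate-specific antigen. Basal prostate cells lie beneath them and carry other keratins and the transcription factor p63. Carcinoma cells can lose the adhesion proteins of epithelium and gain those of mesenchyme, and PC3 is widely used as a model of prostate cancer that grows without androgen.

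The deposited estimated counts summed to between 28075986 and 30394729 per library. The counts advance in steps of 0.842, 0.926 and 1.37 in replicates 1, 2 and 3, the worth of 1 read, which puts the libraries at about 33627516, 30311323 and 22209651 reads and makes replicate 3 the shallowest. A value of 0 allows up to 3 reads, or 0.0892, 0.0990 and 0.135 CPM (reads scaled to the library's total) in the 3 libraries. Such floors cover counting error only. Levels are FPKM, fragments scaled by transcript length and by the mapped fragments of the library, so that genes of different length can be set side by side.

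Of 23285 genes in the table, 10682 (45.9%) had an FPKM of at least 1 in all 3 libraries. They are called expressed below. A further 2654 genes (11.4%) were listed at 0 in all 3, and 9949 lay between. The single libraries held 11242, 11155 and 11213 genes at or above 1 FPKM. Only 528 genes reached 1 FPKM in exactly 1 library and 518 in exactly 2 libraries, so the libraries differed little in which genes passed. The median of the expressed genes was 4.96 FPKM. All 3 libraries held 2572 genes at 10 FPKM or more, 237 at 100 or more and 4 at 1000 or more. Protein-coding genes took 85.9% ± 0.72 of the summed FPKM (SD, n = 3), and 9846 of 18779 of them (52.4%) were expressed. Of long noncoding RNA genes 107 of 846 (12.6%) were expressed, with 0.57% ± 0.018 of the summed FPKM.

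**Figure D1:**
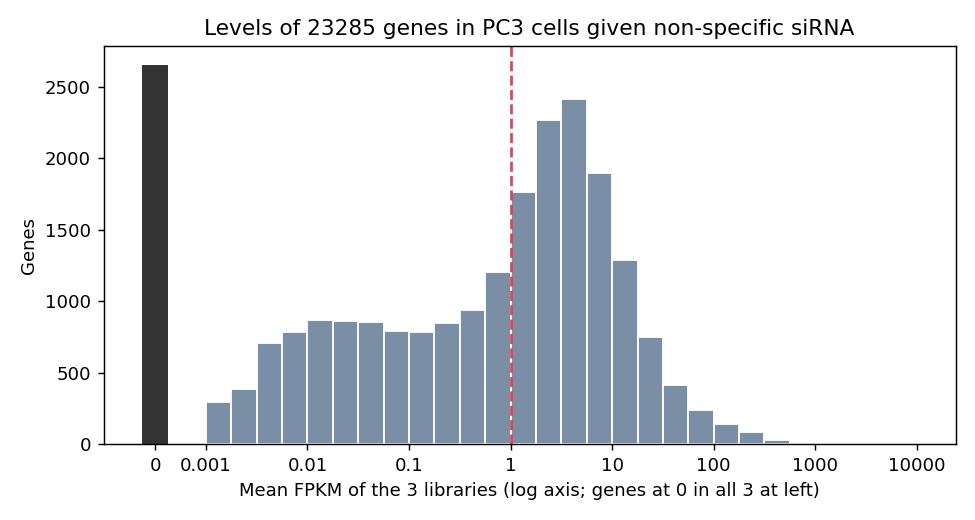
Number of genes (vertical axis) by mean FPKM of the 3 non-specific siRNA libraries (horizontal axis, log scale), with genes listed at 0 in all 3 as the black bar at the left. The dashed line marks 1 FPKM. The levels form a broad low shoulder under 0.1 FPKM and a peak to the right of the line, around the median of 4.96 FPKM of the expressed genes.

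*MSMP*, the gene of a small secreted protein first described in PC3 cells, had the highest mean level. It measured 3729 FPKM in replicate 1, 1555 in replicate 2 and 6385 in replicate 3, a range of 4.10-fold. It was the most abundant gene in replicates 1 and 3 but not in replicate 2. *MSMP* held 2.24%, 0.891% and 3.56% of all FPKM in the 3 libraries. It lies at chr9:35749277-35754274 (hg19) in a locus that the table shares with *RGP1*, which measured 2.25, 1.83 and 2.8 FPKM. The 250 bases before the *MSMP* start in RefSeq (chr9:35754277-35754526, strand -, GRCh38.p14) are shown because it was the most abundant gene. Capitals mark TATAAA, the core of a TATA box, searched on both strands. Its overlapping matches begin 29 and 27 bases before the start, 1 on each strand, and 10.7% of 35116 RefSeq promoter windows of this length hold at least 1 match.
MSMP: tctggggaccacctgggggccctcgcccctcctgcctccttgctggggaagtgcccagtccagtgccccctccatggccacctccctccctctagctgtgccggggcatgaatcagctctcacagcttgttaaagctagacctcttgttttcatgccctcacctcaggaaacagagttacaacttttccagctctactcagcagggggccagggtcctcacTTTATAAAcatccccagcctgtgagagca

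*UBB*, a polyubiquitin gene, measured 1171, 1255 and 1234 FPKM and ranged 1.07-fold over the libraries. The other highly expressed genes included *FTH1*, the heavy chain of the iron store ferritin (939 ± 209 FPKM, SD, n = 3), and *S100A6*, a small calcium-binding protein (885 ± 112). *TMSB10* (725 ± 44) and *TMSB4X* (666 ± 31.9), whose products bind actin monomers, *ACTB* (635 ± 65.4), the tubulin gene *TUBA1C* (533 ± 84.3) and the glycolytic *GAPDH* (528 ± 44.8) were also among the 20 highest once genes of small RNA classes, described further on, are set aside. So were the ribosomal protein genes *RPS24* (1049 ± 117), *RPL41* (755 ± 36.5) and *RPL8* (643 ± 55.5). The 10 most abundant genes together held 8.52% ± 0.83 of the summed FPKM, the first 100 held 26% ± 0.36 and the first 1000 held 61.7% ± 0.54. As shares of estimated counts, which are not divided by gene length, these were 4.96%, 13.8% and 43.1%.

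Of these 20 genes 6 were copies of other genes. *MTRNR2L2* (1163 ± 139.6 FPKM), *MTRNR2L8* (1106 ± 142) and *MTRNR2L1* (823 ± 110.3) are nuclear sequences that resemble a mitochondrial ribosomal RNA. *FTH1P3* (1067 ± 242), *RPL13AP20* (920.5 ± 87) and *RPL13AP6* (793 ± 79.6) are processed pseudogenes of ferritin and of a ribosomal protein gene. *FTH1P3* measured 113%, 114% and 113% of *FTH1* in the 3 libraries while *FTH1* itself ranged 1.54-fold, and their transcripts were 90.8% identical over 584 bases. *ANXA2P2* likewise measured 226%, 226% and 230% of *ANXA2*, at 98.4% identity over 1020 bases. *RPL13AP20* was less steady, at 737%, 844% and 780% of *RPL13A* (96.7% identical over 609 bases). That ratio ranged 1.15-fold and *RPL13A* itself 1.25-fold. All pseudogenes together held 9.84% ± 0.70 of the summed FPKM. Of 754 of them 369 were expressed, 153 had a mean of 10 FPKM or more and 42 of 100 or more. The sources used here do not say how reads were assigned between near-identical copies, so the level of each single copy is uncertain, and whether reads of the parent genes were counted for the copies was not tested.

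Several defining genes of luminal prostate cells were nearly missing. *KLK3*, which encodes prostate-specific antigen, measured 0.0249 FPKM in replicate 1, from 0.842 estimated counts, the worth of a single read, and was listed at 0 in replicates 2 and 3. The neighbouring protease gene *KLK2* was listed at 0 in all 3 libraries. *FOLH1*, which encodes prostate-specific membrane antigen, measured 0.111, 0.0553 and 0.218 FPKM, below the threshold in every library. *TMPRSS2*, a membrane protease that androgen induces in prostate cells, was the 1 expressed gene of the 6 defining luminal genes, at 5.07, 3.94 and 6.07 FPKM.

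Transcription factors of the prostate lineage were present in the same libraries. *HOXB13*, a homeobox factor of the prostate, measured 79.98, 63.1 and 102 FPKM. *FOXA1*, which opens chromatin for other transcription factors, measured 27.9, 20.8 and 32.4 FPKM. *SPDEF*, an epithelial ETS factor, measured 24.6, 20.6 and 31.7 FPKM. Each was highest in replicate 3 and lowest in replicate 2, as was *TMPRSS2*. *NDRG1*, a stress and androgen response gene, reached 141, 55.1 and 106 FPKM, and *STEAP1*, a surface metalloreductase of prostate cancer, 5.05, 6.87 and 4.1. Of all 24 genes of the luminal list 10 were expressed (41.7%, against 45.9% of all genes), with a list median of 0.69 FPKM against 0.87 over all genes.

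Some keratins of simple epithelium were abundant and others low, and so were its adhesion genes. *KRT19* measured 149, 149 and 145 FPKM, *KRT18* 40.3, 41.1 and 43.4, and *KRT8* 35.1, 46.7 and 37.8. The claudin genes *CLDN4* (148 ± 17.2 FPKM, SD, n = 3) and *CLDN3* (47 ± 10.4), which encode tight junction proteins, and *SPINT2* (53.1 ± 14.6), an inhibitor of membrane proteases, were high as well. *CDH1*, the gene of E-cadherin, measured 0.932, 0.425 and 1.25 FPKM and so passed 1 FPKM in replicate 3 alone. *EPCAM* was just above the threshold at 1.63, 1.43 and 1.32 FPKM, and *ESRP1*, an epithelial splicing factor, was below it at 0.439, 0.146 and 0.125. The keratin genes *KRT80* (2.4 ± 0.65), *KRT7* (1.87 ± 0.897) and *KRT20* (1.68, 0.693 and 3.12) were far lower than *KRT19*. Of the 35 genes of simple epithelium 21 were expressed (60%, against 45.9% of all genes), with a median of 1.83 FPKM against 0.87. In a bulk library a gene present in few cells and a gene low in every cell cannot be told apart.

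Some mesenchymal genes were expressed alongside the keratins and others were low. The intermediate filament gene *VIM* measured 192, 198 and 201 FPKM, and the collagen VI genes *COL6A1* (203, 153 and 209) and *COL6A2* (177, 152 and 170.1) were of the same order. *FN1*, fibronectin, measured 77.8, 28 and 80.03 FPKM, low in replicate 2. *CDH11*, a mesenchymal cadherin, was at 23.4 ± 2.23 FPKM (SD, n = 3). The transcription factors *ZEB1*, a repressor of E-cadherin (2.23 ± 0.0615), and *TWIST1* (5.47 ± 0.265) were lower and steady. The factors *ZEB2* (0.0628 ± 0.0107) and *SNAI1* (0.287 ± 0.0533) were below 1 FPKM in every library. So were *COL1A2* (0.102 ± 0.0189), *DCN* (0.0161 ± 0.00773) and *POSTN* (0.00208 ± 0.00361). All 5 defining genes of this list were expressed, the fifth being *COL1A1* at 3.96 ± 1.36 FPKM, and 16 of its 30 genes in all (53.3%, near the 45.9% of all genes), with a median of 2.33 FPKM. Of the basal and squamous list 13 of 25 were expressed (52.0%, also near the 45.9% of all genes), with a median of 1.17 FPKM. They included *SFN* (44.5 ± 5.86), which encodes a 14-3-3 protein of stratified epithelium, and *KRT17* (24.7 ± 1.18). *KRT5* measured 3.23, 7.04 and 3.24 FPKM, high in replicate 2, and *KRT14* 19.2, 18.8 and 17.1. *TP63*, the gene of p63, was at 0.0397 ± 0.023 FPKM. *KRT14* measured 12.8%, 12.6% and 11.7% of *KRT19*, with which its transcripts were 76.1% identical over 947 bases. That ratio ranged 1.09-fold and *KRT19* 1.03-fold, and whether the keratins shared reads was not tested.

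**Figure D2:**
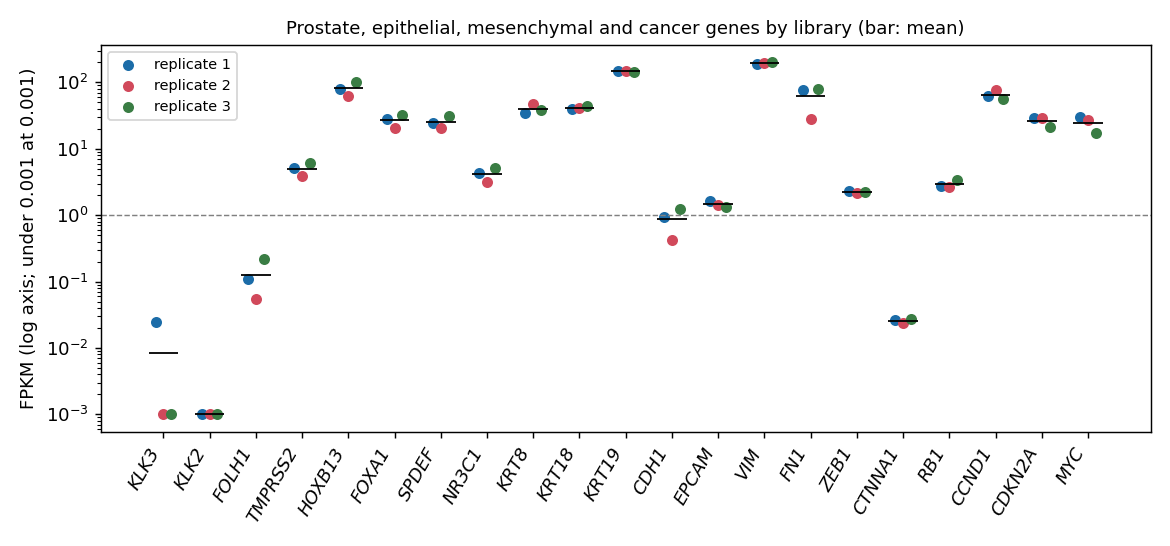
FPKM (log axis) of prostate, epithelial, mesenchymal and cancer genes in the 3 libraries, 1 coloured point per library, with the mean as a bar and 1 FPKM as the dashed line. *KLK3*, *KLK2* and *FOLH1* lie below the line in every library, *HOXB13* and *FOXA1* lie above it, and *KRT19* at 145 to 149 FPKM and *VIM* at 192 to 201 lie at similar heights.

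Genes that are altered in prostate cancer or in this line covered a wide range of levels. PC3 cells are known to lack alpha-catenin, the link between cadherins and actin. Its gene *CTNNA1* measured 0.0263, 0.0235 and 0.027 FPKM on 8.34 to 9.58 estimated counts per library. The retinoblastoma gene *RB1* was expressed at 2.78, 2.67 and 3.38 FPKM. Some other genes of the list were far higher than its median of 2.94 FPKM. *CCND1*, cyclin D1, was at 65.2 ± 11.7 FPKM (SD, n = 3), *CDKN2A*, which encodes the inhibitor p16, at 26.5 ± 4.58, and *MYC* at 24.9 ± 6.44. Of the 38 genes of this list 24 were expressed (63.2%, against 45.9% of all genes).

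Among 48 nuclear receptor genes 20 were expressed (41.7%, near the 45.9% of all genes). The highest were *PPARG*, the fatty acid sensor of fat cells (29.8, 25.6 and 21.8 FPKM), and *NR2F1* (22.8, 18.8 and 29.99), an orphan receptor. The liver X receptor gene *NR1H2* followed at 18.5 ± 0.424 FPKM (SD, n = 3). The orphan receptors *NR2F6* (13.7 ± 2.12) and *NR2F2* (13.6 ± 2.57) were next. *NR3C1*, the glucocorticoid receptor, was expressed at 4.39, 3.18 and 5.13 FPKM. The vitamin D receptor *VDR* was at 0.538, 0.971 and 0.857 FPKM, the progesterone receptor *PGR* at 0.0134 ± 0.000894, and the oestrogen receptor *ESR1* at 0.00628, 0 and 0.00513. Of 120 transcription factor genes known from the lineages of the body 34 were expressed (28.3%, against 45.9% of all genes), with a median of 0.30 FPKM. After *FOXA1* came *SOX9* (19.7 ± 4.16 FPKM), *SOX4* (15.1 ± 3.26), *KLF5* (13.8 ± 2.82) and *FOXA2* (13.5 ± 1.04), all known from glandular or progenitor epithelium. *GATA2*, a zinc finger factor of luminal and blood cells, was at 1.38 ± 0.271 FPKM.

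Markers of other lineages were mostly near 0, apart from the smooth muscle list described further on. The 19 lists outside prostate, epithelium and mesenchyme hold 372 genes. Among them 47 were expressed (12.6%, against 45.9% of all genes) and 262 had a mean below 0.1 FPKM. Their median was 0.025 FPKM against 0.87 over all genes, and 7 of their 61 defining genes were expressed. No gene of the 28 hepatocyte genes was expressed, with *ALB*, albumin, at 0.0237 ± 0.00526 FPKM (SD, n = 3). None of 10 melanocyte genes and none of 17 thyroid, adrenal, pituitary and gonad genes was expressed either. The melanocyte genes *SOX10* (1.4, 0.908 and 1.57), *MITF* (1.2, 0.849 and 1.15) and *MC1R* (1.03, 0.762 and 0.819) did reach 1 FPKM in replicate 1, but not in replicate 2. *TYR*, the pigment enzyme tyrosinase, and *GH1*, growth hormone, were listed at 0 in all 3 libraries. In the leukocyte list 2 of 32 genes were expressed, *CD68* (6.87 ± 1.35) and *LCP1* (5.05 ± 0.83), while the pan-leukocyte gene *PTPRC* was at 0.00493 ± 0.00241 and the T cell gene *CD3D* was listed at 0. In the erythroid list 1 of 21 genes was expressed, *EPOR*, the erythropoietin receptor (5.1 ± 1.01), and *HBB*, the gene of beta-globin, was listed at 0.

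Neuroendocrine genes, which mark small cell prostate cancer, were low. *CHGA*, chromogranin A, measured 0.00925, 0.00539 and 0.0148 FPKM, and *SYP*, synaptophysin, 0.275, 0.237 and 0.216. Of the 24 genes of this list 1 was expressed, the enolase *ENO2*, at 71.7 ± 13.8 FPKM. Of 27 cancer-testis antigens, which are normally made in the germ line and often in tumours, *PRAME* alone was expressed, at 3.55, 5.09 and 4.6 FPKM, and *MAGEA1* was at 0.0791 ± 0.029. In the bone list 3 of 17 genes were expressed, *PTHLH*, parathyroid hormone-related protein, at 13.2, 6.33 and 8.58 FPKM, *TNFRSF11A* at 3.17 ± 0.631 and *COL1A1*. The osteoblast factor *SP7* was at 0.0511 ± 0.0122. The pluripotency list had 3 of 20 expressed, the highest *DPPA3* (2.56 ± 0.159), with *NANOG* at 0.0566 ± 0.0368.

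**Figure D3:**
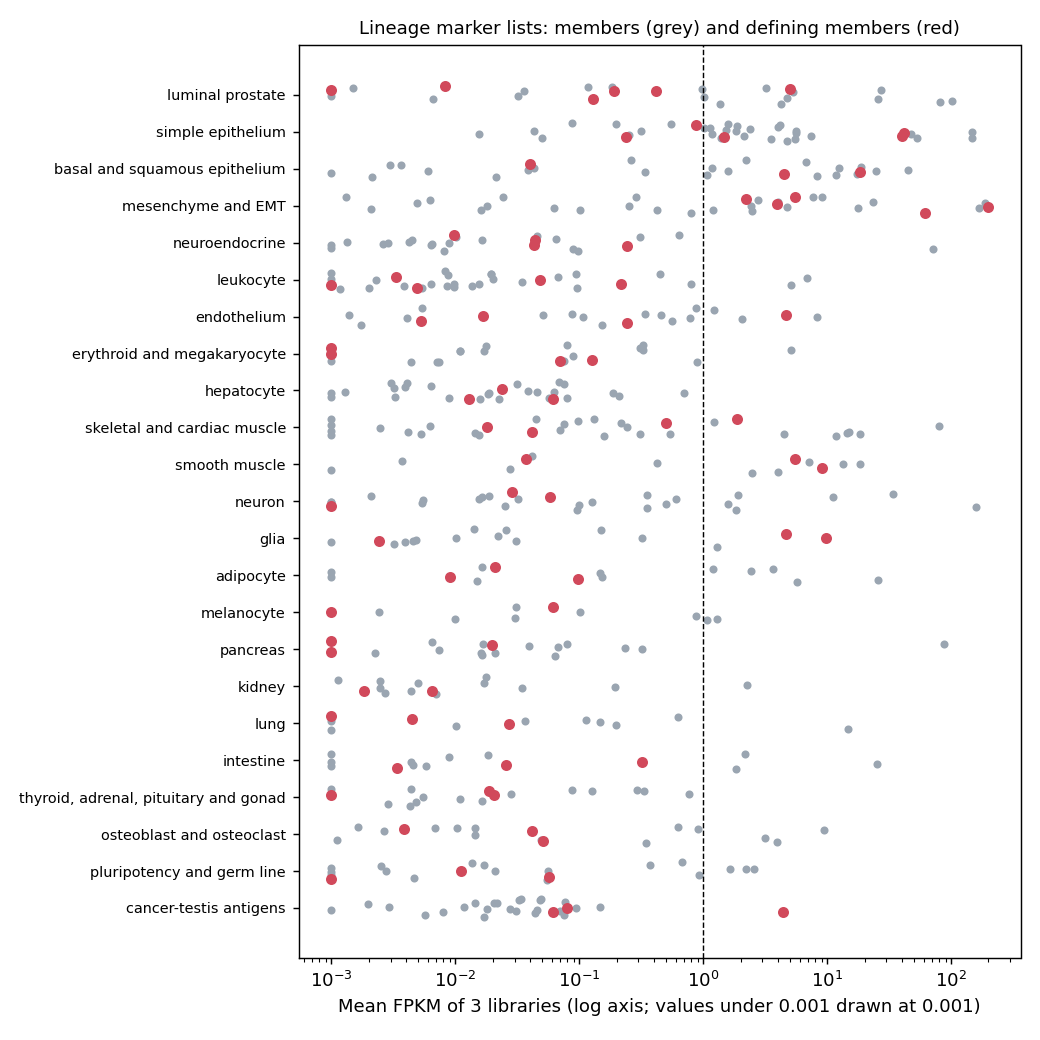
Mean FPKM over the 3 libraries (log axis; values under 0.001 drawn at 0.001) of the members of 23 lineage lists, with defining members in red, other members in grey and 1 FPKM as the dashed line. Members of the prostate, epithelial and mesenchymal lists at the top spread to both sides of the line, and 262 of the 372 genes of the other 19 lists lie below 0.1 FPKM.

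The 7 defining genes of other lineages that were expressed belonged to 5 lists. They were *ACTG2* (9.07 ± 0.724 FPKM, SD, n = 3) and *MYH11* (5.49 ± 0.665) of smooth muscle, *GFAP* (9.7 ± 0.566) and *MBP* (4.68 ± 0.478) of glia, *KDR* of endothelium (4.64 ± 1.02), *CKM* of skeletal muscle (1.88 ± 0.184) and *PRAME*. Of the transcription factors of these lineages, *MYOD1* of muscle was at 0.0418 ± 0.0157 FPKM and *MYOCD* of smooth muscle at 0.0374 ± 0.0203, while *SOX10* of glia measured 1.4, 0.908 and 1.57 and *SOX18* of endothelium 0.816, 0.692 and 0.827. In smooth muscle 7 of 13 list genes were expressed (53.8%, near the 45.9% of all genes), with a median of 2.45 FPKM against 0.87. In skeletal and cardiac muscle 8 of 31 were expressed (25.8%), in endothelium 4 of 20 (20%) and in adipocytes 5 of 14 (35.7%). The endothelial genes *CDH5* (0.00523 ± 0.00209) and *VWF* (0.0166 ± 0.00435) and the fat cell genes *ADIPOQ* (0.0209 ± 0.0021) and *LEP* (0.00906 ± 0.00552) were not among them. *CLDN5* led the endothelial list at 8.33 ± 1.12 FPKM and *FABP4* was at 5.67 ± 1.7 in the fat cell list. Neurons had 6 of 26 list genes expressed, led by *TUBB3* (159 ± 22) and *NEFL* (34 ± 5.82), with *SNAP25* listed at 0. Glia had 2 of 16, the pancreas 1 of 18, the kidney 1 of 14, the lung 1 of 12 and the intestine 2 of 15.

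Several of the tissue-restricted genes that reached 1 FPKM have a widely expressed relative of similar sequence. In a list of 20 restricted relatives of widely expressed genes, 16 were expressed, against 45.9% of all genes, with a median of 8.16 FPKM. The 8 whose transcripts were at least 80% identical to the partner had a median of 46.9 FPKM, with 7 expressed. The other 12 had a median of 4.31 FPKM, with 9 expressed. Among the 8, *ACTA1*, *ACTA2*, *ACTC1* and *ACTG2* share the partner *ACTB*, so the pairs are not separate. Partner levels ranged from 7.04 FPKM (*PDHA1*) to 635 (*ACTB*). The medians do not set identity apart from partner level, and a part of identity was not tested. *PGK2*, a testis form of the glycolytic enzyme phosphoglycerate kinase, measured 307, 152 and 341 FPKM. That was 114%, 113% and 115% of its widely expressed partner *PGK1* (269, 135 and 298), so the ratio stayed within 1.02-fold while *PGK1* ranged 2.20-fold. Their transcripts were 81.1% identical over 1561 bases.

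Some other ratios were about as steady, within 1.02-fold over the libraries. *ACTA1*, skeletal muscle actin, measured 72.2, 89.7 and 76 FPKM, which was 12.4%, 12.7% and 12.4% of *ACTB* (86.0% identical). *TUBA4A* measured 68.0%, 69.1% and 68.4% of *TUBA1B* (86.3% identical), and *ENO3*, the muscle enolase, 25.9%, 25.4% and 25.8% of *ENO1* (76.7% identical). *PRSS1*, pancreatic trypsinogen and the 1 expressed gene of the pancreas list (88.5, 73.3 and 100.2 FPKM), measured 88.5%, 89.5% and 89.2% of *PRSS3*, another trypsinogen (91.4% identical). Other pairs of the list did not show this. The ratio of *PGAM2* to *PGAM1* ranged 1.41-fold against 1.29-fold for *PGAM1*, that of *ACTA2* to *ACTB* 1.49-fold against 1.22-fold, and that of *CKM* to *CKB* 1.25-fold against 1.21-fold. *HOXB13* and *FOXA1*, whose transcripts gave no alignment, had ratios of 287%, 303% and 314%, a range of 1.10-fold. The pairs outside the list of 20 were chosen after their values were seen. The levels of these restricted genes are uncertain, because no source used here gives the way shared reads were counted.

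The listed genes of secreted factors were expressed more often than all genes, and the listed surface receptors about as often. Both lists were chosen with earlier results of these data known, so their shares do not stand for these classes of genes. Of 63 secreted factors and proteases 40 were expressed (63.5%, against 45.9% of all genes), with a median of 4.76 FPKM. *LGALS1*, galectin-1, measured 305, 299.6 and 295 FPKM, *DKK1*, an inhibitor of Wnt signalling, 198, 199 and 214, and *GDF15*, a stress cytokine, 222, 98.8 and 156. *PLAU*, urokinase, was at 39.6, 69.8 and 33.6 FPKM, high in replicate 2. The cytokine gene *IL8* was at 7.22 ± 1.74 FPKM (SD, n = 3) and *IL6* at 0.6001, 1.04 and 0.178. Of 47 receptors and surface proteins 21 were expressed (44.7%), led by *BSG*, basigin (95.8 ± 20.7), and *EPHA2*, an ephrin receptor (48.4 ± 5.77). The receptor kinases *MET* (28.4 ± 6.49), *AXL* (13.9 ± 5.06) and *EGFR* (4.77 ± 0.525) and the hyaluronan receptor *CD44* (26.5 ± 3.34) were expressed.

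Lists of general cell function were expressed almost whole, against 45.9% of all genes. All 33 reference genes (median 50.6 FPKM), all 50 genes of oxidative phosphorylation (24.7) and all 24 of cholesterol synthesis (14.3) were at 1 FPKM or more in every library. So were 41 of 42 genes of mitosis (median 5.44 FPKM), 39 of 44 of DNA replication (3.33), 31 of 34 of glycolysis and hypoxia (17.3), and 30 of 31 of the ATF4 and unfolded protein response (21.3). The exception among 75 cytosolic ribosomal protein genes (median 153 FPKM) was *RPL21*, at 8.65 and 9.32 FPKM in replicates 1 and 2 and listed at 0 in replicate 3. It rested on 300.1 and 332 estimated counts in the first 2 libraries, its locus holds a pseudogene and small RNA genes, and whether the 0 is a failed estimate was not tested. Interferon response genes were expressed in 32 of 40 cases (median 4.27), led by *IFITM3* (179.9 ± 22.2 FPKM, SD, n = 3) and *ISG15* (102 ± 31.4). Immediate early genes were expressed in 21 of 26 cases (median 7.10), led by *FOSL1* (129 ± 18.6). Inflammatory NF-kB targets were expressed in 14 of 24 (58.3%, median 2.32), led by *LIF* (22.5 ± 0.459).

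Small RNA genes reached high FPKM from few reads. By name 1621 genes belong to classes such as microRNA, small nucleolar and small nuclear RNA, and 1366 of them were listed at 0, which is 51.5% of all genes listed at 0. The 87 that counted as expressed and the remainder took 1.77% ± 0.11 of the summed FPKM but 0.0225% ± 0.0029 of the estimated counts. *MIR492* measured 745, 736 and 826 FPKM on a mean of 353 estimated counts. *MIR1973* measured 162, 0 and 173 FPKM on 2.53, 0 and 2.74 estimated counts, so 1 or a few reads set its level. *MIR4461* (228 ± 35.5 FPKM, SD, n = 3) and *MIR320A* (99.9, 64.4 and 319) rested on means of 19.5 and 16 estimated counts, and *SNORA70B* (72.1 ± 16) and *SNORA70* (71.6 ± 15.7) on 44.3 and 46.5.

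How far the 3 libraries differ was described over the 5329 genes with a mean of at least 5 FPKM, on log2(FPKM + 0.1), which understates the differences of low genes. The median size of the difference was 0.21 between replicates 1 and 2, 0.16 between replicates 1 and 3 and 0.25 between replicates 2 and 3. At least 2-fold apart were 82 genes between replicates 1 and 2, with 32 higher (0.600%) and 50 lower (0.938%) in replicate 2. Between replicates 1 and 3 there were 88, with 38 higher (0.713%) and 50 lower (0.938%) in replicate 3. Between replicates 2 and 3 there were 182, with 121 higher (2.27%) and 61 lower (1.14%) in replicate 3. Small RNA classes made up 26, 28 and 27 of these genes. The deposited confidence bounds of the 2 libraries lay apart for 49, 57 and 138 of the 5329 genes. Across these genes, which are not independent replicates, Pearson's r of the log2 levels was 0.944, 0.940 and 0.911 in the same order of pairs and Spearman's rho 0.932, 0.941 and 0.894. Replicates 2 and 3 were the least alike by each of these measures.

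The coefficient of variation over the 3 libraries (SD divided by the mean) had a median of 12.5% for these genes. Without replicate 2 the median was 8.09%, without replicate 1 it was 12.6% and without replicate 3 it was 10.5%. It was below 10% for 1956 genes (36.7%) and above 50% for 93, of which 34 were of small RNA classes. By level, with small RNA classes left out, the median was 13.4% for genes of 1 to 5 FPKM, 12.3% from 5 to 20, 13% from 20 to 100 and 10.4% at 100 or more. Counting reads alone would give 4.05%, 2.39%, 1.51% and 0.84% in the same classes. Outside the small RNA classes the spread was thus several times the counting error at every level and changed little with level. Small RNA genes had medians of 140%, 52.5%, 32.9% and 50.6% at these levels, on few estimated counts.

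The steadiest genes of at least 50 FPKM were the myosin light chain genes *MYL12B* (194, 194 and 196 FPKM) and *MYL12A* (137, 137 and 138), with coefficients of variation of 0.586% and 0.608%. Whether these relatives shared reads was not tested. *EIF4G2*, a translation factor (88.6, 89.7 and 89.8), *KRT19* with 1.41%, the splicing factor gene *SRSF9* with 1.49% and *LGALS1* with 1.66% followed. *YWHAZ*, *LRRC59*, the histone gene *HIST1H2BO* and *GUK1* completed the 10 steadiest, all at 2.15% or less. The median of the 592 genes at this level was 12%.

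The trefoil factor genes and *MUC5B* stood apart in replicate 3. *TFF1*, *TFF2* and *TFF3* encode trefoil factors, small peptides secreted with mucus. *TFF1* measured 26, 28.6 and 101 FPKM, *TFF2* 10.4, 12.6 and 39.4, and *TFF3* 10.01, 8.44 and 56.6. Replicate 3 was 3.12 to 6.70 times replicate 2 for the 3 genes, while replicates 1 and 2 were close to each other. The gel-forming mucin *MUC5B*, the 1 expressed gene of the lung list, measured 7.33, 6.52 and 30.6 FPKM on 9870 to 50463 estimated counts. *MUC2* (0.209, 0.175 and 0.578) and *MUC6* (0.736, 0.136 and 1.93) were also highest in replicate 3, at low levels. Further genes far above the other libraries in replicate 3 were *CAMK2N1*, an inhibitor of a calcium-dependent kinase (12.9, 9.75 and 52.1 FPKM), and *OLFM2* (4.34, 2.59 and 15.9).

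Replicate 2 was lowest for a different set. *SPARC*, a secreted matrix glycoprotein, measured 14.1, 2.66 and 36.5 FPKM, so that all 3 libraries differed by more than 2-fold. *AGR2*, a disulphide isomerase that helps to fold mucins, measured 108, 28.3 and 138 FPKM, and *TEX101*, a surface glycoprotein known from germ cells, 43.1, 15.5 and 76.1. *SCARA5*, a ferritin receptor, followed at 5.56, 2.26 and 12.7 FPKM and *C14orf37* at 4.57, 1.62 and 9.75. With *MSMP* these genes shared the order replicate 2, replicate 1, replicate 3. In replicate 1 the stress factor *ATF3* (10.1, 3.8 and 4.84 FPKM) and *DDIT4*, an inhibitor of mTORC1 (23.6, 9.47 and 13.7), were among the 6 genes farthest above the others, small RNA classes left out. *RPL21*, *GOLGA8F* (9.2, 4.71 and 3.08) and the near-identical *GOLGA8A* (18.2, 10.8 and 6.77) and *GOLGA8B* (18.2, 11 and 6.82) were the others. *RPL36A*, at 1.62, 5.14 and 9.14 FPKM, lay farthest below in replicate 1, in a locus it shares with other genes. *KRT81*, a hair keratin, measured 58.9, 157 and 60.7 FPKM, and *KRT86*, 96.6% identical to it, 24.6, 64.5 and 25.1.

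Metallothioneins, small proteins that bind zinc and copper and are induced by metals through the factor MTF1, differed between the libraries as a family. *MT2A* measured 171 FPKM in replicate 1, 385 in replicate 2 and 84.2 in replicate 3. *MT1X* measured 89, 194 and 45, and *MT1G* 64.5, 144 and 35.8. Replicate 2 was highest and replicate 3 lowest for all 11 expressed genes of the 15 metallothionein genes in the table, with replicate 2 between 4.00 and 4.96 times replicate 3. Over all expressed genes replicate 2 was highest in 38.8% and replicate 3 lowest in 28.9%. The family was chosen after its values were seen. Its members are close copies (*MT1X* is 83.4% identical to *MT2A* over 332 bases, and *MT1L* 86.4% over 338), so shared reads can tie their levels, and the 11 are not independent of each other. The 250 bases before the RefSeq starts of *MT2A* (chr16:56608334-56608583, strand +) and *MT1X* (chr16:56682220-56682469, strand +), both GRCh38.p14, are shown because these members differed together. Capitals mark the core of the metal response element, searched as TGCACNC or TGCGCNC on both strands, where N is any base.
MT2A: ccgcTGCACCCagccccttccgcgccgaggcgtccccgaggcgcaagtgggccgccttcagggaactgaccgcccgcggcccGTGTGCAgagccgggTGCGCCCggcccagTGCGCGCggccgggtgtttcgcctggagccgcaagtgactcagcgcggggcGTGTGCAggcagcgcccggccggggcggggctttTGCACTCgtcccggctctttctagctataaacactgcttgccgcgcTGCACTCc
MT1X: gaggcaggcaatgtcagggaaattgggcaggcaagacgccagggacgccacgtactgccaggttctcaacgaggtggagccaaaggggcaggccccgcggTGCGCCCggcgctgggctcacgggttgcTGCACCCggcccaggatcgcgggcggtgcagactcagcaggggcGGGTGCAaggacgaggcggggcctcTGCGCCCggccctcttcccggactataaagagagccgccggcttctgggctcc
The *MT2A* window holds 7 matches and the *MT1X* window 4. Of 35116 RefSeq windows of this length 24.8% hold at least 1 match, 0.370% at least 4 and 0.12% at least 5. A match of letters does not show that the factor was bound.

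The small noncoding RNAs *RMRP* and *RPPH1* stood apart in replicate 2. *RMRP*, the RNA of a ribosomal RNA processing enzyme, measured 41.9, 0.991 and 45.6 FPKM on 278, 6.48 and 299.7 estimated counts. *RPPH1*, the RNA of ribonuclease P, measured 29, 0.578 and 38.3 FPKM on 382, 7.41 and 508 estimated counts. Both were thus well counted in replicates 1 and 3 and nearly missing from replicate 2. The share of all small RNA classes in the estimated counts was 0.0256%, 0.0198% and 0.0220% in the 3 libraries. Neither RNA carries a poly(A) tail as a rule. Both were chosen because they were among the genes farthest from the other libraries.

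**Figure D4:**
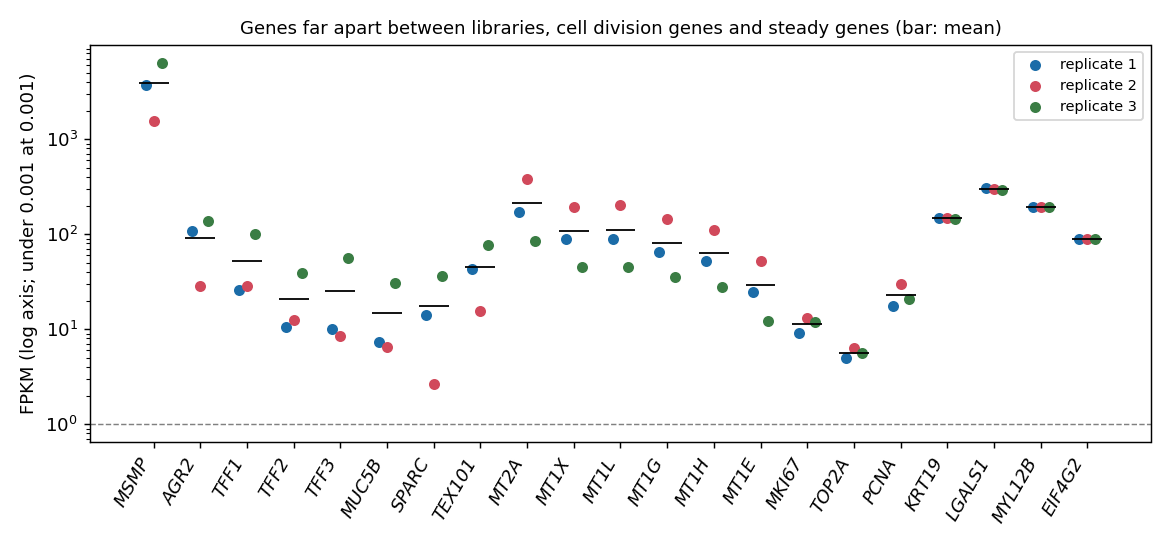
FPKM (log axis) in each library, 1 coloured point per library with the mean as a bar, of genes far apart between libraries, of cell division genes and of steady genes. *TFF1* to *TFF3* and *MUC5B* show 1 high point, replicate 3, the metallothioneins lie in the order replicate 2, 1, 3, *AGR2*, *SPARC* and *TEX101* are lowest in replicate 2, and the 4 genes at the right show 3 points on top of each other.

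Whole gene lists also differed between the libraries. For each expressed gene the deviation of a library was taken as log2(FPKM + 0.1) minus the gene's mean over the 3 libraries. Over all 10682 expressed genes the median deviation was -0.03, 0.00 and 0.02 in replicates 1, 2 and 3. Replicate 1 was highest for 20.7% of them, replicate 2 for 38.8% and replicate 3 for 40.5%, and the same replicates were lowest for 32.6%, 38.5% and 28.9%. Cell division genes were highest in replicate 2. The median deviation of the mitosis list was -0.21, 0.42 and -0.21, with replicate 2 highest for 41 of 41 expressed members. That of DNA replication was -0.26, 0.45 and -0.16, with replicate 2 highest for 37 of 39. The cell cycle inhibitor of apoptosis *BIRC5* measured 21.1, 35.6 and 22.9 FPKM, the proliferation marker *MKI67* 9.05, 13 and 12, the cyclin *CCNB1* 11.7, 21 and 12, the replication clamp *PCNA* 17.5, 30.1 and 20.7, and the helicase subunit *MCM2* 3.34, 5.66 and 3.3.

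Interferon response genes were also highest in replicate 2, with a median deviation of -0.17, 0.29 and -0.16 and 27 of 32 members highest there. *ISG15*, a ubiquitin-like protein, measured 87.3, 139 and 81.4 FPKM, and *IFI6*, a mitochondrial interferon response protein, 33, 77.5 and 38.6. The list of oxidative phosphorylation deviated by -0.17, 0.15 and 0.01, with replicate 2 highest for 40 of 50 and replicate 1 lowest for 43, and replicate 1 was at -0.09 without replicate 2. Ribosomal protein genes deviated by -0.12, 0.07 and 0.05, and replicate 1 was lowest for 65 of 74.

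Glycolytic and stress genes were lowest in replicate 2. The glycolysis and hypoxia list deviated by 0.15, -0.40 and 0.22, with replicate 2 lowest for 27 of 31. *PGK1* measured 269, 135 and 298 FPKM and *LDHA*, lactate dehydrogenase, 334, 239 and 403. The ATF4 and unfolded protein response list deviated by 0.28, -0.33 and 0.04, with replicate 2 lowest for 25 of 30 and replicate 1 highest for 24. *HSPA5*, the main chaperone of the endoplasmic reticulum, measured 153, 80.5 and 123 FPKM. Cholesterol synthesis deviated by -0.01, -0.19 and 0.19, with replicate 2 lowest for 18 of 24 and *INSIG1*, a regulator of that pathway, at 38.9, 29.7 and 63.1 FPKM. Immediate early genes deviated by 0.24, 0.05 and -0.27, with replicate 3 lowest for 15 of 21, and NF-kB targets by 0.04, 0.12 and -0.12. Taken from the mean of the 2 libraries left, replicate 2 was at -0.25 for glycolysis and -0.11 for cholesterol synthesis without replicate 3, and at -0.17 for the ATF4 list without replicate 1. Replicate 3 was at -0.18 for immediate early genes without replicate 1. Because a list's genes can share regulation and each deviation is taken from the mean of the same 3 libraries, these counts describe the libraries and were not tested. Replicate 1 was the deepest library and replicate 3 the shallowest, and the part of depth in these differences was not tested. The labels name no batch, date or passage for any library.

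**Figure D5:**
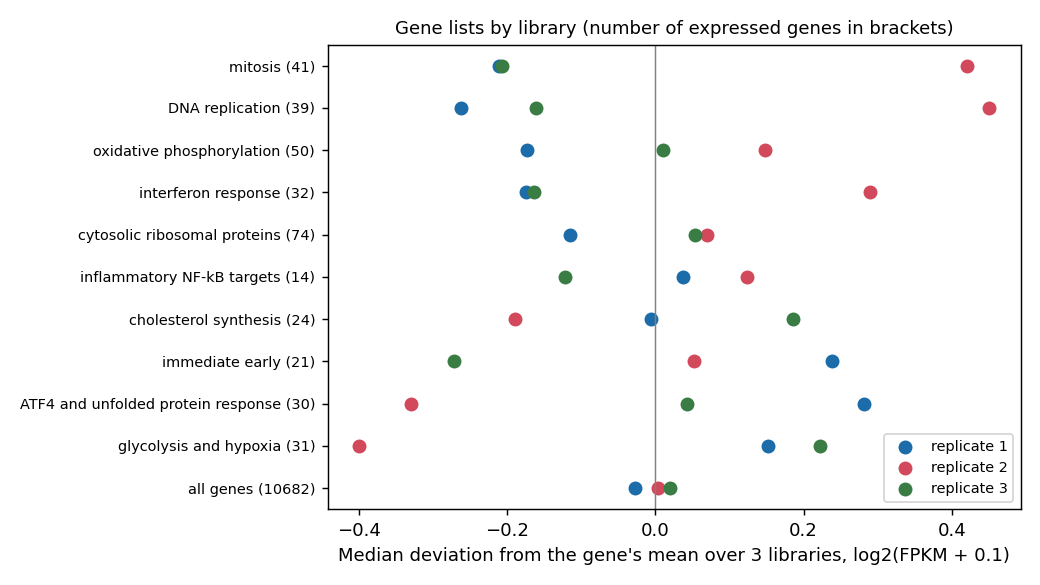
Median deviation of each library from the gene's own mean over the 3 libraries (horizontal axis, log2 of FPKM + 0.1) for the expressed members of 10 lists and for all 10682 expressed genes, 1 coloured point per library. Replicate 2 lies farthest to the right for mitosis (0.42) and DNA replication (0.45) and farthest to the left for glycolysis and hypoxia (-0.40), while the 3 points of all genes lie within 0.03 of 0.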

How the data were processed

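RNA of PC3 cells given a non-specific siRNA was measured in 3 libraries, grouped and numbered by the sample titles. The authors deposited estimated counts per gene and FPKM per gene with confidence bounds, for 23285 genes, per the file headers. Named in the submitters' processing notes are hg19 as the build, FastQC 0.10.1 and Cufflinks 2.0.2. The aligner, the annotation and any strand setting were not given in the sources used here.

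Of the estimated counts above 0, 90.0% to 90.4% were whole multiples of 1 step per library within 0.05, and dividing by that step gave the reads per library. A gene was called expressed at 1 FPKM or more in each library. Differences used log2(FPKM + 0.1) for genes with a mean of at least 5 FPKM. No test was made, since the 3 libraries are 1 group, and all values are descriptions. The calls of genes 2-fold apart and the coefficient of variation were tried on simulated data, and the other steps were not. Tools were Python 3.11.15, pandas 2.3.3, numpy 2.4.6, matplotlib 3.10.9 and BLAST+ 2.17.0.

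The 40 gene lists hold 1281 entries, of which 1278 were found. Members and lists were chosen with earlier results of these data known. Named were the 20 highest genes, up to 6 small RNAs, the defining members of each list and its 4 highest, genes farthest from the other 2 libraries and the 10 steadiest of at least 50 FPKM. The remaining genes were chosen after their values were seen. Some genes that this rule names are not reported here. The 12 genes farthest from the others in each library were small RNAs apart from *RPL21*, most with few counts, so those with small RNA classes left out are given. Locus coordinates are those of the FPKM table with starts raised by 1, because 1905 loci have the length of their RefSeq gene if starts count from 0 and 253 if from 1. Biotypes (22008 genes matched) and promoter sequences are from RefSeq, and transcript identities from the best blastn alignment of GENCODE 29 transcripts, both on GRCh38 and used for names and sequences only. Alternatives were other thresholds, scalings and pseudocounts, small RNAs left out, estimated counts in place of FPKM, and each library left out.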

Additional observations from a re-analysis of the deposited data

How the results depend on the processing

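Of 134 recomputed values 15 moved by more than 1.5 times for a count or 1 SD for another value. All 15 are given here. For a list deviation the SD was that of the list's deviations in the 3 libraries. It was nearly as large as the deviation itself, as 0.188 against -0.190 for cholesterol synthesis in replicate 2. The 63 recomputed list deviations could therefore hardly count as moved, and the tally says little about them. Counts, shares and coefficients of variation cannot be negative. Only the 63 recomputed list deviations could turn direction, and none did. The list deviations kept their sign under median-of-ratios scaling, the TPM scale, estimated CPM, a pseudocount of 1 FPKM, a mean of 5 FPKM or more, and without each other replicate, but several shrank by more than 1.5 times: ribosomal proteins in replicate 1 (-0.12) to -0.06 on the TPM scale and -0.07 with median-of-ratios scaling, oxidative phosphorylation in replicate 1 (-0.17) to -0.09 without replicate 2, the ATF4 list in replicate 2 (-0.33) to -0.17 without replicate 1, cholesterol synthesis in replicate 2 (-0.19) to -0.10 as CPM and -0.11 without replicate 3, glycolysis in replicate 2 (-0.40) to -0.25 without replicate 3, and immediate early genes in replicate 3 (-0.27) to -0.18 without replicate 1. Each list was recomputed only in the replicate that lay farthest from 0 for that list, so a kept sign was likely beforehand. Without 1 library the mean rests on 2 libraries, the replicate itself among them, which tends to shrink a deviation. The TPM scale gave 13714 expressed genes and a minimum of 10 estimated counts 15141. A threshold of 3 FPKM left 6816 expressed genes, 39 of the 114 prostate, epithelial and mesenchymal genes (60 before) and 30 of the 372 genes of other lineages (47 before). A minimum of 10 estimated counts gave 120 of these 372 and 16 of the luminal genes (10 before). It is a looser cutoff, passed by 15141 of all genes against 10682. Leaving out small RNA classes left 1288 genes listed at 0. As a share of estimated counts the 10 most abundant genes held 4.96% and the first 100 held 13.8%. With a mean of at least 1 FPKM the genes 2-fold apart were 238 (replicates 1 and 2), 255 (1 and 3) and 506 (2 and 3), and with at least 20 FPKM 31, 19 and 62. Without 1 replicate the median coefficient of variation was 8.09% to 12.6%, the expressed genes 10778 to 10917, and the genes listed at 0 2938 to 3176. Genes of 1 to 5 FPKM rested on a median of 651 estimated counts, but small RNA genes of that level on 0.62, so depth limits mainly the latter. No paired analysis was possible because 1 group was described and no test was made.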
